A study of Mus musculus with 8 samples.

Results

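The S100 genes described here are 10 genes of the mouse skin, chosen by gene name among the non-control probes of the array. They were S100a8, S100a9, S100a7a and S100a7l2, which are called alarmins below, and S100a4, S100a6, S100a10, S100a11, S100a14 and S100a16, which are epithelial or broadly expressed. The names matched 12 of 39429 probes, which covers 10 of 29608 gene names. S100a4 and S100a16 had 2 probes each, and the brightest probe of a gene is given unless another is named. The skin, called palm skin in the labels, came from the forepaws of male mice aged 9 to 10 weeks, C57BL/6 (WT) or Adcyap1r1 -/- (PAC1R KO), with 6 mice named per genotype. Under a mixed anesthetic (midazolam, medetomidine and butorphanol), which all groups shared, 5 µL of PACAP at 1e-07 mol/L in saline with albumin, or that vehicle alone, was injected into the skin of the footpad. Skin was taken 30 and 60 min later. PACAP is a neuropeptide, PAC1R, the product of Adcyap1r1, is its selective receptor, and the vehicle samples of KO mice carry the deletion as well. The comparisons ask what PACAP changes in skin with and without that receptor. The 8 RNA samples (4 vehicle and 4 PACAP) were hybridised as 4 pairs, and each pair was measured on 2 arrays with the Cy3 and Cy5 dyes exchanged. Which mice entered an RNA sample was not stated, so a pair counts as 1 replicate and the spread between its arrays is technical.

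S100 proteins are small calcium-binding proteins with a pair of EF-hand loops. S100a8 and S100a9 form calprotectin, a heterodimer that makes up much of the cytosolic protein of neutrophils, is induced in injured or inflamed keratinocytes, chelates zinc and manganese, and acts outside the cell on Toll-like receptor 4. S100a7a is the mouse relative of human psoriasin, an antimicrobial protein of the epidermis, and S100a7l2 is a related gene of the same family. The other members are best known for binding partner proteins or for where they are made. S100a10 forms a complex with annexin A2 at the plasma membrane that binds plasminogen at the cell surface, S100a11 binds annexin A1 and is found in the cornified envelope, S100a4 acts on the cytoskeleton of motile cells and is also secreted, S100a6 is calcyclin, and S100a14 and S100a16 are made in epithelia.

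All 12 probes lay on chromosome 3 of mm9, the build of the files, between 90332439 and 93368496, in the cluster that holds the epidermal differentiation genes. The probe of S100a8 at chr3:90473778-90473837 is shown because the main result was read through it. It covers coding sequence of the second EF-hand, and the capitals mark the 36 bases from position 17 to 52, counted from 1 at its 5′ end, that spell the calcium-binding loop.
S100a8 probe: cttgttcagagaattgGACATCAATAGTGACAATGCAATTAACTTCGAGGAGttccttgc
The longest run of bases shared by a member's probe and the probe of another S100 gene was 11, between S100a6 and S100a4.

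The promoters of the alarmins that passed the threshold in at least 1 comparison are shown because these genes moved in partly different samples. Each is the 250 bases before the annotated start in GRCm38.p6, from RefSeq, on the strand of the gene. Capitals mark the TATA box TATAAA, the C/EBP-like letters TTNNGNAA and the AP-1-like letters TGANTCA, searched on both strands, and no match overlapped another.
S100a8, chr3:90668821-90669070, plus strand: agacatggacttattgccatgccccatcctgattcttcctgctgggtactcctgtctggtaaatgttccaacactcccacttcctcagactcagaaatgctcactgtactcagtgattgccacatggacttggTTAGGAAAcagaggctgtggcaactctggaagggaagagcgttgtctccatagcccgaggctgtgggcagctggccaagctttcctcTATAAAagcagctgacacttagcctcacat
S100a9, chr3:90695722-90695971, minus strand: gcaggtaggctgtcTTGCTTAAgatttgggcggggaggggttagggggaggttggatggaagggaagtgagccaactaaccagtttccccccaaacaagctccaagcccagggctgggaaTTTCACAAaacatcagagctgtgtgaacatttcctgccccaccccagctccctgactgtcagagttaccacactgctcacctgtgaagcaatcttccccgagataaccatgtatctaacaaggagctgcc
S100a7l2, chr3:91090806-91091055, minus strand: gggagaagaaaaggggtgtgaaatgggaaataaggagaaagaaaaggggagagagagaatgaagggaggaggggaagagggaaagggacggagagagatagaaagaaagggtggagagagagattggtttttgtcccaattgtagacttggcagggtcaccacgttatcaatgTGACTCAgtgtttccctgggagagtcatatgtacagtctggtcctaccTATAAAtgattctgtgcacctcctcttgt
The C/EBP-like letters began 117 bases before the start of S100a8 and 236 and 130 bases before that of S100a9, and were found in 2 of the 8 members with a promoter in the table and in 36.8% of all 32851 promoters. The TATA box began 30 bases before the start of S100a8, 29 before that of S100a7l2 and 31 before that of S100a4, so 3 of 8 members held it, against 12.4% of all promoters. The AP-1-like letters began 77 bases before the start of S100a7l2 and were also found for S100a11 and S100a16, against 6.75% of all promoters. S100a10 and S100a14 were not in the table. A match of letters is a description and not a binding site.

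Ratios are PACAP over vehicle on the log2 scale, from the log ratio that Agilent Feature Extraction gave for each spot. A gene was called when its mean ratio over both arrays reached 2.0-fold upward or 0.5-fold downward, in the same direction and with a Feature Extraction p below 0.01 on each array, and this rule describes the RNA pairs that were hybridised and not a population of mice. Levels are log2 intensities per RNA sample after background correction and normalization of the arrays, and are compared for a gene between samples and not between genes. The summed level of a list is the log2 of the summed intensities of its genes, in which genes with brighter probes weigh more. WT arrays lay on 1 slide and KO arrays on another, and the effects of genotype and of slide therefore cannot be told apart. Over all 30351 probes tested, the turned ratios of the 2 arrays of a pair correlated at r between -0.44 and -0.08, while arrays of the same dye orientation correlated at r between 0.24 and 0.60, so that single-array ratios carried a dye component, which cancels in the mean of a pair. The probe of Adcyap1r1, the deleted gene, read 8.26 to 8.76 in WT samples and 7.91 to 8.56 in KO samples, and whether it lies in the deleted stretch was not given, so genotypes are those of the labels. By immunostaining, the study saw PAC1R in the eccrine gland of WT mice and not in that of KO mice. The tissue was bulk skin, in which fewer cells of a type and less RNA per cell cannot be told apart.

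S100a8 was higher after PACAP in every pair, and by more in KO than in WT mice. In WT mice at 30 min its level was 11.01 after vehicle and 11.74 after PACAP. In WT mice at 60 min it was 12.17 after vehicle and 13.10 after PACAP. In KO mice it was 11.30 and 13.31 at 30 min, and 11.70 and 13.86 at 60 min, in the same order. The lowest vehicle and lowest PACAP samples were both those of WT mice at 30 min, and the PACAP samples of KO mice were the highest of the 8, so vehicle and PACAP samples overlapped only through the pair of WT mice at 30 min, whose PACAP sample lay below the vehicle sample of WT mice at 60 min. The ratio was 0.74 ± 0.02 (SD of 2 arrays) in WT mice at 30 min and 0.90 ± 0.03 at 60 min, or 1.67-fold and 1.87-fold. In KO mice it was 2.05 ± 0.06 at 30 min and 2.19 ± 0.03 at 60 min, or 4.13-fold and 4.56-fold. Only the KO ratios passed the 2.0-fold rule.

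S100a9, the partner of S100a8 in calprotectin, was also higher after PACAP in every pair and by more in KO mice. Its level after vehicle was 12.05 in WT mice at 30 min, 13.05 in WT mice at 60 min, 12.02 in KO mice at 30 min and 12.59 in KO mice at 60 min. After PACAP it was 12.996, 13.59, 14.02 and 14.47 in those groups. Arrays of neighbouring samples overlapped for the 30 min vehicle samples of both genotypes, and for the PACAP sample of WT mice at 30 min and the vehicle sample of WT mice at 60 min, whereas the other neighbours in the order of the 8 levels were separate on both arrays. The ratio was 0.95 ± 0.23 in WT mice at 30 min, or 1.93-fold, just under the threshold, and 0.55 ± 0.27 at 60 min, or 1.47-fold. It was 2.00 ± 0.10 in KO mice at 30 min and 1.84 ± 0.10 at 60 min, or 4.01-fold and 3.57-fold. The array with PACAP in Cy3 read higher than the other array in each of the 4 pairs. Leaving out the arrays with PACAP in Cy5 brought S100a9 past the rule in WT mice at 30 min, where 2 members were then called in place of 1. Across the 8 RNA samples the levels of S100a8 and S100a9 correlated at r = 0.98, which is a description, since the samples share arrays and slides.

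**Figure D1:**
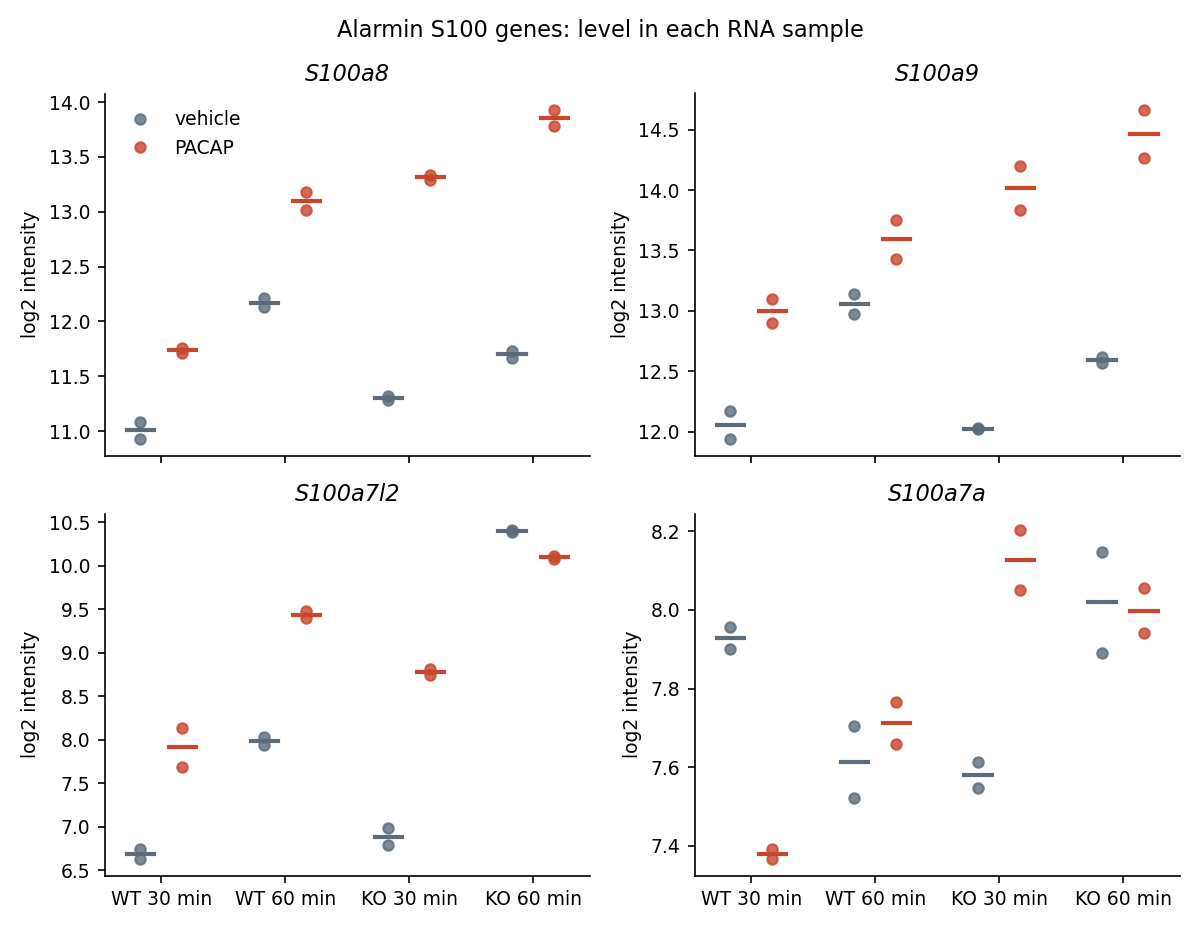
Level of the 4 alarmin genes in each of the 8 RNA samples. The y axis is log2 intensity on a scale of its own per gene, points are the 2 dye-swapped arrays and lines their mean. S100a8 and S100a9 were highest in the PACAP samples of KO mice (13.31 and 13.86, 14.02 and 14.47), while S100a7l2 was highest in both samples of KO mice at 60 min (10.40 after vehicle and 10.10 after PACAP).

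S100a7l2, read from a dim probe, was higher after PACAP in every pair but that of KO mice at 60 min. Its level after vehicle was 6.68 in WT mice at 30 min, 7.99 in WT mice at 60 min, 6.88 in KO mice at 30 min and 10.40 in KO mice at 60 min. After PACAP the levels were 7.91, 9.44, 8.78 and 10.10 in the same groups. The vehicle sample of KO mice at 60 min was the highest of all 8, above every PACAP sample. The ratio was 2.59 ± 0.37 in WT mice at 30 min, 1.68 ± 0.04 in WT mice at 60 min and 2.82 ± 0.12 in KO mice at 30 min, and these 3 passed the rule. In KO mice at 60 min it was -0.29 ± 0.04, or 0.816-fold. The size at 30 min depended on the processing. With normexp background and loess in place of the Feature Extraction ratios, which changes the background correction and the normalization together, the 6.00-fold of WT mice became 2.34-fold and the 7.07-fold of KO mice became 3.73-fold. The latter lay below the 4.04-fold of S100a8 in that pair under the same setting, so the order of the members' ratios depends on the processing too. The vehicle channel of WT mice at 30 min was well above background on 1 of 2 arrays. At 60 min in WT mice the values were 3.20-fold and 2.73-fold.

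S100a7a was not called in any comparison. Its levels lay between 7.38 and 8.13 in all 8 samples, with 7.58 to 8.02 after vehicle. The ratio was -0.89 ± 0.03 in WT mice at 30 min, or 0.539-fold, which was near the lower threshold and held on both arrays. It was 0.16 ± 0.17 in WT mice at 60 min, 0.71 ± 0.26 in KO mice at 30 min and 0.999-fold in KO mice at 60 min, from arrays at -0.22 and 0.22. In the order of its 8 levels, 5 of 7 neighbouring samples overlapped on their arrays. With normexp and loess the first of these was 0.683-fold.

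The 6 epithelial and broadly expressed members stayed close to the vehicle level. Their 24 mean ratios lay between 0.873-fold and 1.18-fold, with 12 above and 12 below 0 on the log2 scale, and 0 were called. The arrays of a pair agreed in sign for 10 of the 24. For S100a16 the array with PACAP in Cy5 was above 0 and its swap below 0 in each pair, as at 0.01 and -0.35 in WT mice at 30 min. S100a6 ran the other way, at -0.15 and 0.25 in WT mice at 60 min, except in WT mice at 30 min, where both arrays were above 0 (0.03 and 0.44). S100a14 lay below 0 on the mean of each pair, between -0.12 and -0.02. The second probe of S100a4 had the opposite sign in 2 of 4 comparisons, at -0.03 in WT mice at 30 min and -0.005 in KO mice at 60 min. The second probe of S100a16 never did.

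The levels of these 6 genes varied little among the 8 samples as well. Over all samples the highest level was 1.11 times the lowest for S100a16, 1.14 times for S100a14, 1.19 times for S100a6 and S100a10, 1.25 times for S100a4 and 1.34 times for S100a11. The same quotient was 7.21 for S100a8, 5.44 for S100a9, 13.1 for S100a7l2 and 1.68 for S100a7a.

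**Figure D2:**
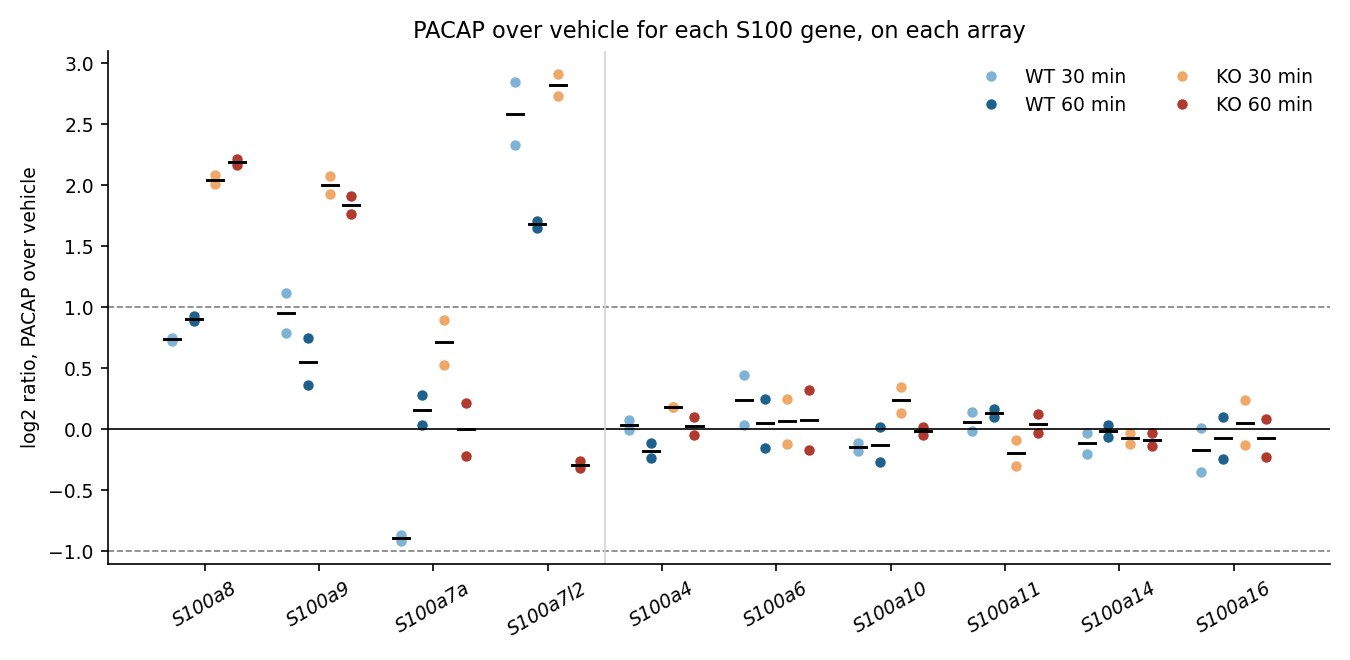
PACAP over vehicle for the 10 genes on every array. The y axis is the log2 ratio, points are arrays colored by comparison, short black lines are the mean of a pair, and dashed lines mark 2.0-fold and 0.5-fold. The called values are those of S100a8 and S100a9 in KO mice and of S100a7l2 in all groups but KO mice at 60 min, and the genes right of the vertical line lie between 0.873-fold and 1.18-fold.

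In counts, 1 of 10 members was called in WT mice at 30 min, where 0.267% of 29608 genes were called upward. In WT mice at 60 min 1 of 10 was called, against 0.659% of genes. In KO mice 3 of 10 were called at 30 min and 2 of 10 at 60 min, against 0.692% and 0.179% of genes. All calls were upward and of genes grouped here as alarmins. In WT mice the called member was S100a7l2 at both times. In KO mice S100a8 and S100a9 were called at both times, and S100a7l2 at 30 min. S100a8 and S100a9 are among the genes that the study listed from these arrays, so their direction in KO mice is not independent evidence. At a threshold of 1.5-fold, 4 members were called in WT mice at 30 min, S100a7a downward among them, and 2 in WT mice at 60 min, where 1.52% and 1.03% of 29608 genes were called in either direction. In KO mice the same 3 and 2 members were called as at 2.0-fold, against 2.94% of genes at 30 min and 0.662% at 60 min.

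The only replication of PACAP over vehicle is across genotypes and times, and limma was run over those 4 pairs. The mean effect was 1.47 ± 0.27 (SE, n = 4 pairs) on the log2 scale for S100a8, with a 95% interval from 0.81 to 2.12. It was 1.34 ± 0.25 for S100a9, from 0.73 to 1.95, and 1.70 ± 0.49 for S100a7l2, from 0.51 to 2.89. For S100a7a it was -0.005 ± 0.24, from -0.59 to 0.58. The S100a7l2 estimate was 1.07 with normexp and loess and 2.36 without the pair of KO mice at 60 min, and its probe was not tested where both channels had to be well above background. S100a8 and S100a9 were above 0 in 4 of 4 pairs and S100a7l2 in 3 of 4, and the limma adjusted p over 30351 probes was 1 for each. With limma 0 probes had an adjusted p below 0.05, and 678 (2.23%) had an unadjusted p below 0.05, among them these 3 members. For the 6 epithelial and broadly expressed genes the estimates lay between -0.07 and 0.11, and all their 95% intervals lay within -0.27 to 0.31, which bounds a mean effect between 0.828-fold and 1.24-fold.

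The PACAP effect on S100a8 and S100a9 was larger on the KO slide than on the WT slide. For S100a8 the mean ratio was 2.12 in KO and 0.82 in WT mice, a difference of 1.30 ± 0.20 (SE) with an interval from 0.81 to 1.78. For S100a9 it was 1.92 and 0.75, a difference of 1.17 ± 0.22, from 0.62 to 1.72. Both KO pairs exceeded both WT pairs for each gene. With limma, unadjusted p was 0.000586 and 0.00198, and the adjusted p was 0.839 for both, which does not pass. Over the alternatives adjusted p ranged from 0.179 to 1 for S100a8 and from 0.173 to 1 for S100a9. With limma 0 of 30351 probes passed adjustment and 972 (3.20%) had an unadjusted p below 0.05. S100a7a differed by 0.72 ± 0.41 and S100a7l2 by -0.87 ± 0.95, with intervals that span 0. With 1 pair left out, the difference ran from 0.19 (without WT mice at 30 min) to 1.25 (without WT mice at 60 min) for S100a7a. For S100a7l2 it ran from -2.43 (without KO mice at 30 min) to 0.69 (without KO mice at 60 min). For the other 6 genes the intervals lay within -0.66 to 0.74, which leaves room for differences of up to 1.67-fold.

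Between the times, the PACAP effect had no settled direction for S100a8 (0.16 ± 0.58, 60 minus 30 min) or S100a9 (-0.28 ± 0.53), whose intervals ran from -1.28 to 1.597 and from -1.60 to 1.04. For S100a7l2 the difference was -2.01 ± 0.62, from -3.56 to -0.46, with an unadjusted limma p of 0.0195 and an adjusted p of 1. It was -3.00 without the pair of WT mice at 60 min, -1.02 without that of KO mice at 60 min, and -0.99 with normexp and loess. With 1 pair left out, the difference ran from -0.50 (without WT mice at 30 min) to 0.81 (without KO mice at 30 min) for S100a8, and was also below 0 without KO mice at 60 min (-0.49). For S100a9 it ran from -0.92 (without KO mice at 60 min) to 0.36 (without WT mice at 60 min), and was also above 0 without KO mice at 30 min (0.24). For S100a7a the difference was 0.17 ± 0.52, from -1.12 to 1.46. With limma 0 of 30351 probes passed adjustment for the time difference and 483 (1.59%) had an unadjusted p below 0.05, S100a7l2 among the members.

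**Figure D3:**
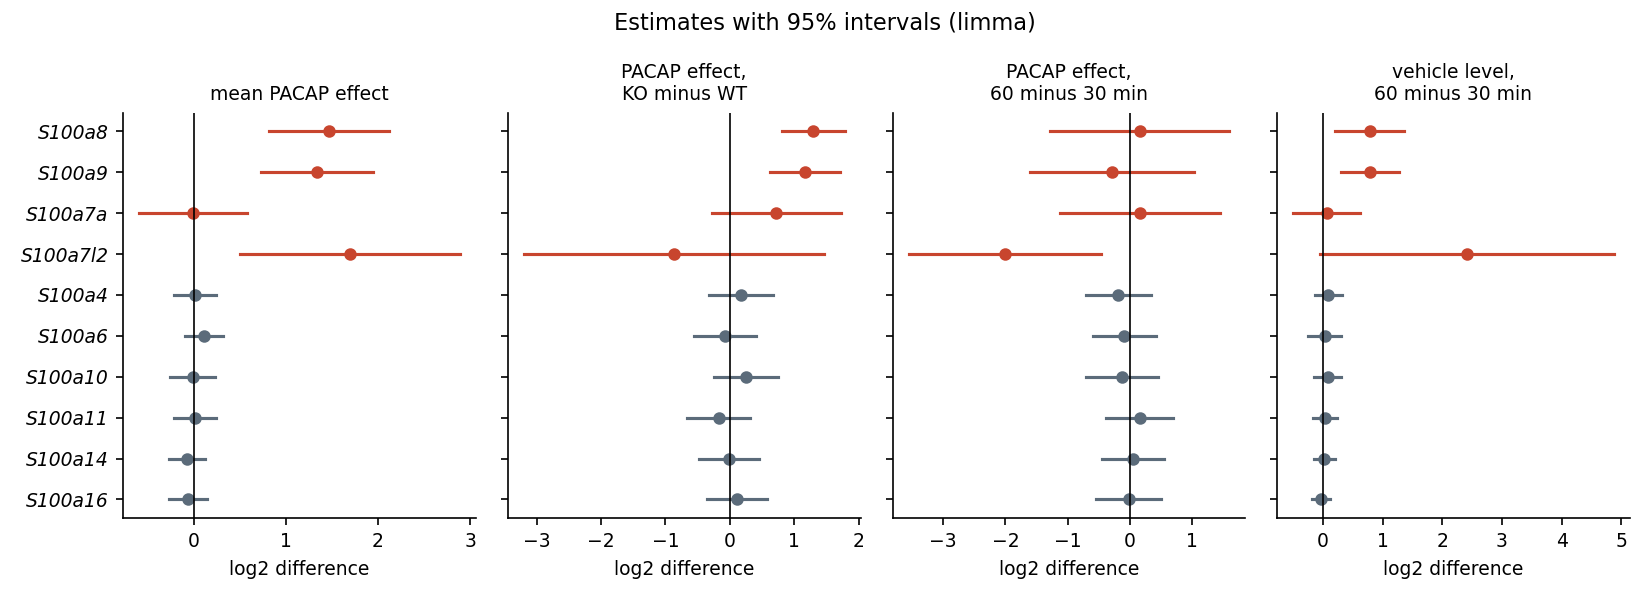
Estimates (points) and 95% intervals (lines) from limma for the 10 genes in 4 of the 5 tests, with log2 differences on the x axes, alarmins in red and the other genes in grey. For S100a8 and S100a9 the intervals of the mean PACAP effect, of KO minus WT and of the vehicle time difference lie above 0 before adjustment, and those of the 6 other genes include 0 in every panel.

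No difference between vehicle samples, by time or by genotype, passed adjustment. At 60 min the vehicle level of S100a8 was 0.78 ± 0.21 higher than at 30 min (11.94 against 11.15) and that of S100a9 was 0.79 ± 0.18 higher (12.82 against 12.04), in both genotypes. Unadjusted limma p was 0.0207 and 0.0120, and adjusted p was 0.228 and 0.209. Here 0 of 37546 probes passed adjustment and 6291 (16.8%) had an unadjusted p below 0.05, so the share is high across the array. S100a7l2 was 2.41 ± 0.87 higher at 60 min, with an interval from -0.06 to 4.87, and between 1.20 (without KO mice at 60 min) and 3.62 (without WT mice at 60 min) with 1 sample left out. Between KO and WT vehicle samples the estimate was -0.09 ± 0.46 for S100a8, -0.25 ± 0.43 for S100a9 and 1.31 ± 1.39 for S100a7l2, and the intervals of the first 2 ran from -1.41 to 1.23 and from -1.48 to 0.99. None of the 3 kept its sign with 1 sample left out. S100a8 ran from -0.67 (without WT mice at 30 min) to 0.49 (without WT mice at 60 min), S100a9 from -0.75 to 0.25 without the same samples, and S100a7l2 from -0.45 (without KO mice at 60 min) to 3.06 (without KO mice at 30 min). With limma 0 of 37546 probes passed adjustment and 2429 (6.47%) had an unadjusted p below 0.05, none of them members. For S100a7a the estimate was 0.03 ± 0.21 between genotypes and 0.06 ± 0.20 between times. For the 6 other genes the intervals lay within -0.32 to 0.35 between genotypes and within -0.25 to 0.31 between times.

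Of 7 further S100 genes on the array, 0 were called in any comparison, with medians between -0.16 and 0.26 against 0 for all genes. S100a3, a protein of the hair cuticle, had the widest swing, at 0.86 in WT mice at 60 min and -0.43 in KO mice at 60 min. Among 7 genes of the S100-fused type, large proteins of the cornified layer that begin with an S100 domain, Tchh (trichohyalin, of the inner root sheath) was called higher at 2.21-fold, 5.71-fold and 2.51-fold in WT mice at 30 and 60 min and KO mice at 30 min. Tchhl1 was called at 3.24-fold in WT mice at 60 min and 2.10-fold in KO mice at 30 min. Both were at 0.911-fold and 0.902-fold in KO mice at 60 min. Flg, Flg2, Hrnr, Rptn and Crnn were not called.

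No receptor or partner of the members passed the fold rule. Of 9 genes for alarmin receptors and adaptors, such as Tlr4 and Ager, 0 were called in any comparison, with a highest median of 0.27 in KO mice at 30 min, where Cd14, a co-receptor of Toll-like receptor 4, was at 1.51-fold. Of 10 annexin and plasmin genes, 0 were called. In KO mice at 30 min, below the threshold but in the same direction on both arrays, Plaur was at 1.75-fold, Anxa11 at 0.659-fold and Ahnak, which binds S100a10, at 0.586-fold. Ahnak was at 1.39-fold in WT mice at 30 min, and Anxa2, the partner of S100a10, lay between 0.997-fold and 1.11-fold. Among 9 measured cytokines known to induce alarmins, Il1b was called at 2.10-fold in WT and 4.76-fold in KO mice at 30 min, and Il6 at 4.47-fold and 3.80-fold. At 60 min neither was called, with Il1b at 0.574-fold in WT and 1.46-fold in KO mice. Csf3, the growth factor of neutrophils, was called at 60 min in KO mice at 3.24-fold. Its probe was near background, well above it in 3 of 4 channels of that pair, and its level was 6.09 after vehicle and 6.49 after PACAP.

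Because S100a8 and S100a9 mark neutrophils as well as injured epidermis, 12 other neutrophil genes were counted beside them. Of these 1 was called, Retnlg at 2.91-fold in KO mice at 30 min, and the medians were 0.03, -0.15, 0.25 and 0.09 in the order WT 30, WT 60, KO 30 and KO 60 min. Ly6g was 1.92-fold in KO mice at 30 min and 0.924-fold at 60 min. The granule genes Ngp and Ltf were near background, with levels of 5.89 to 6.00 and 6.01 to 6.19 and signals well above background in 7 and 8 of 16 channels. The summed level of the 12 genes ranged from 12.72 to 12.82 in WT vehicle, 12.65 to 13.10 in WT PACAP, 12.65 to 12.85 in KO vehicle and 12.80 to 12.89 in KO PACAP samples. Csf3r, at 11.75 to 12.52, made up much of this sum through the brightness of its probe and was at 0.737-fold in KO mice at 30 min. Without it, a choice made after seeing the data, the sum of 11 genes ranged from 11.33 to 11.55 in WT vehicle and 11.39 to 11.51 in WT PACAP samples. In KO mice it was 11.44 after vehicle and 12.02 after PACAP at 30 min, and 11.53 and 11.61 at 60 min. Only the PACAP sample of KO mice at 30 min lay above the others on both arrays (12.07 and 11.97), since the values of the KO PACAP sample at 60 min (11.66 and 11.56) overlapped those of the vehicle sample of WT mice at 60 min (11.51 and 11.59). With Csf3r, the highest sum was that of the PACAP sample of WT mice at 30 min (13.10). Camp was at 1.51-fold in KO mice at 30 min. The part of neutrophils in the S100a8 and S100a9 result was not tested.

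Wound keratins, which injured epidermis makes, were called in 3 of the 4 comparisons. In KO mice at 60 min all 4 were called higher, with Krt6b at 7.68-fold and Krt16 at 5.38-fold. In WT mice at 60 min 3 of 4 were called, and 2 of 4 in KO mice at 30 min, Krt16 at 2.23-fold among them. In WT mice at 30 min 0 were called, with a median of -0.19. Their summed level ranged from 15.02 to 16.30 in WT vehicle and 16.08 to 16.10 in WT PACAP samples, and from 15.43 to 15.82 in KO vehicle and 16.81 to 17.63 in KO PACAP samples. Of 9 keratinocyte genes, Krt1 and Krt10 were called lower in KO mice at 30 min, Krt1 at 0.455-fold and Krt10 at 0.365-fold, and none in the other comparisons. In that pair all 9 were below 0 on the mean and 8 on both arrays, with a median of -0.66, and Krt5 was at 0.584-fold. The part of wound keratins and keratinocyte genes in the S100a8 and S100a9 result was not tested.

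The hair shaft list was counted beside S100a7l2. Of 9 such genes, S100a3 among them, 1 was called higher in WT mice at 30 min (Krt35, 2.20-fold), 7 in WT mice at 60 min and 6 in KO mice at 30 min, and 0 in KO mice at 60 min. In WT mice at 30 min, where S100a7l2 was called, the median of the list was 0.27. In KO mice at 60 min 8 of 9 were below 0 on both arrays, with a median of -0.46. Krt85 was between 0.879-fold and 1.09-fold in all 4 comparisons. The highest were Krt33a, at 9.56-fold in WT mice at 60 min and 4.62-fold in KO mice at 30 min, and Krt33b, at 8.27-fold and 4.57-fold. The lowest of those called were Krt81 (2.44-fold) and Krt31 (2.52-fold) in WT mice at 60 min, and Krt31 (2.15-fold) and Krt86 (2.57-fold) in KO mice at 30 min. The vehicle level of Krt33a was 12.03 in KO mice at 60 min and 8.28 to 9.33 in the other vehicle samples, so the vehicle sample in which S100a7l2 was highest was also that of the hair keratin. Over the 8 samples, which share arrays in pairs, the level of S100a7l2 correlated with 8 of the 9 genes at r between 0.87 (Krt81) and 0.97 (Krt35), but with Krt85 at -0.05. For Tchh and Tchhl1 r was 0.90 and 0.94. The summed level of the 9 genes ranged from 13.80 to 13.83 in WT vehicle, 14.08 to 15.02 in WT PACAP, 13.33 to 15.30 in KO vehicle and 14.09 to 14.86 in KO PACAP samples. S100a3, at 12.51 to 13.86, made up much of this sum through the brightness of its probe. The part of hair follicles in the S100a7l2 result was not tested.

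Markers of other tissues were counted beside the members as well. Of 10 skeletal muscle genes, 4 were called higher in WT mice at 30 min, between Myh2 at 2.27-fold and Ttn at 3.14-fold, and 4 lower in KO mice at 30 min, between Myh4 at 0.402-fold and Acta1 at 0.458-fold. Of 8 liver genes, 5 were called lower in WT mice at 60 min, among them Serpina1a at 0.267-fold and Alb at 0.318-fold. The others were Ttr, Fgb and Fabp1, whose signals were well above background in 3 of 4 channels of that pair. Of the macrophage, eccrine gland, fibroblast, endothelium, Schwann cell and melanocyte, and housekeeping lists, 0 genes were called in any comparison. In KO mice at 30 min 6 of 7 fibroblast genes were below 0 on both arrays, with a median of -0.55 and Col1a2 at 0.550-fold, against a median of 0.33 in WT mice at 30 min. Of 9 eccrine gland genes, 6 were below 0 on both arrays in each of 3 pairs, with medians of -0.21 in WT mice at 30 min, -0.33 in KO mice at 30 min and -0.13 in KO mice at 60 min. In KO mice at 30 min Aqp5 was at 0.585-fold and Slc12a2 at 0.574-fold. The part of these tissues in the members' values was not tested.

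**Figure D4:**
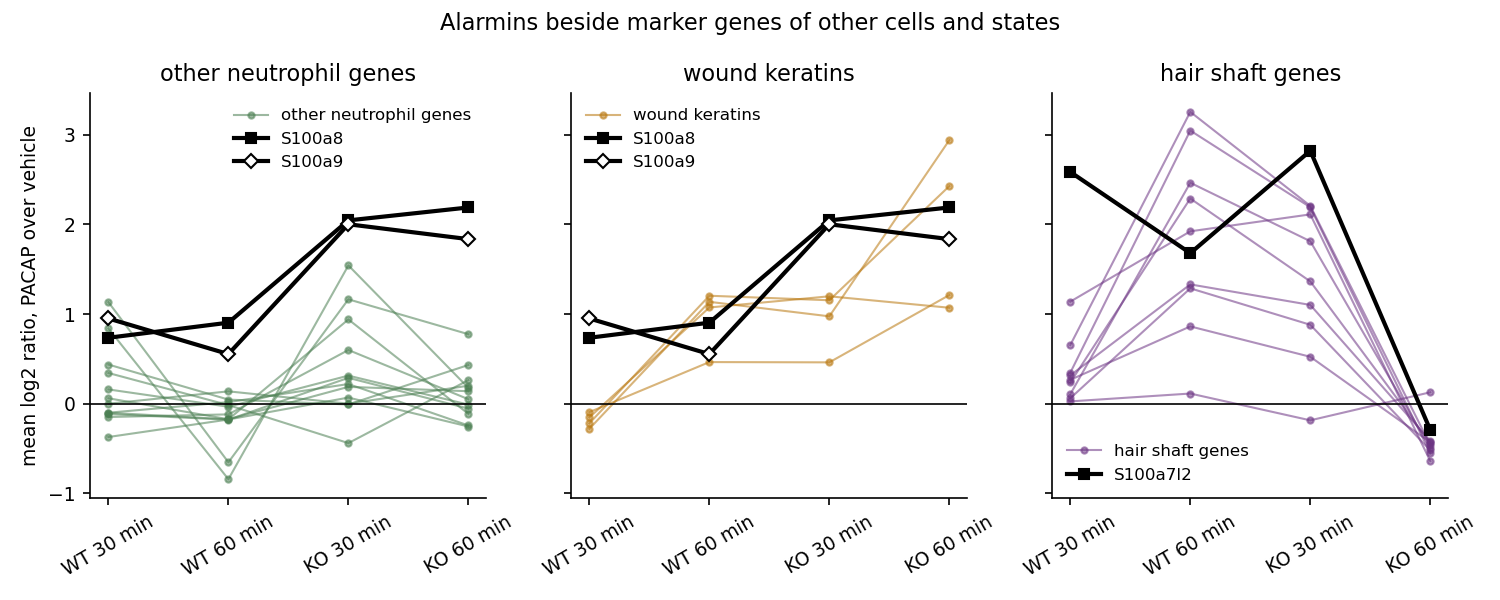
Mean log2 ratio of PACAP over vehicle in the 4 comparisons. Colored lines are single genes of the neutrophil list without members, of the wound keratins and of the hair shaft list, and black lines are S100a8 and S100a9 (left and middle) or S100a7l2 (right), where lines only join the values of a gene. S100a8 and S100a9 lie above 12 other neutrophil genes in KO mice, some of which were near background. In KO mice at 60 min S100a7l2 (-0.29) and 8 of 9 hair shaft genes (median of the list -0.46) lie below 0.

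Outside the members, the genes whose level over the 8 samples was most like that of S100a8, among 17834 probes well above background in all 16 channels, were Clec2f (r = 0.92), Prl2c1 (0.91), Lcn2 (0.90), Fcgr4 (0.89) and Saa2 (0.89). Such a ranking takes the highest of 17834 correlations over 8 samples that share arrays in pairs. How many unrelated genes would reach such r was not tested, so the list is only a description. Lcn2 is the iron-binding lipocalin 2 and Saa2 an acute-phase serum amyloid A protein. In the order WT 30, WT 60, KO 30 and KO 60 min, the ratios of Clec2f were -0.24, 0.20, 0.99 and 0.54. Those of Prl2c1 were 0.14, -0.10, 0.13 and 0.38. Lcn2 had ratios of 0.05, 0.22, 1.60 and 0.82, Fcgr4 of 0.29, 0.35, 1.29 and 0.36, and Saa2 of -0.34, 1.09, 1.92 and 1.104. By the same ranking and with the same limit, the genes most like S100a14 were Samd1 (0.94), Efna1 (0.94), Iba57 (0.92), Zbtb9 (0.91) and Edem1 (0.91). The level of each stayed within a narrow range, such as 10.33 to 10.78 for Samd1.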

How the data were processed

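Male mouse forepaw skin was measured on 8 Agilent 60-mer arrays with 2 dyes. The authors scanned and extracted them with Agilent Feature Extraction (version 12.0.3.1 per the file headers, 11.0.1.1 per the labels), with LOWESS within arrays. The deposited values are the log10 ratio of red over green, its p-value per spot, the intensity of each channel with its local background, and a matrix that equals those log10 ratios, whose column medians ranged from -0.0307 to -0.000739. Here control and outlier spots were left out, ratios were turned to log2 PACAP over vehicle with the dye in the labels and averaged over both arrays of a pair. The authors' p-values speak of 1 array, not of mice. Levels used normexp (offset 50), loess and Aquantile in limma 3.58.1, R 4.3.3, whose lmFit and eBayes with Benjamini-Hochberg adjustment gave all tests, after checks on simulated data. Ratios were tested on the 30351 probes with a red or green signal well above background on each array, and vehicle levels on the 37546 with such a signal in a vehicle channel of any array. The limma p-values measure only the spread between these samples. There were 0 saturated spots, and 54.0% to 65.3% of green and 78.6% to 94.5% of red spots were well above background. Each genotype and time had 1 RNA pair, and this limits the precision.

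The members and the gene lists were chosen with earlier results of these data known. Named were all members, the list genes past the fold rule, with the 2 highest and 2 lowest where more passed, and 5 genes each most like S100a8 and S100a14; values of further list genes were added after they were seen. Of 154 list genes, 3 (Il36a, Il36b and Il36g) had no matching name. Alternatives covered the p filter, fold, centring, spot flags, normalization, dim probes, blocks and left-out arrays or samples.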

Additional observations from a re-analysis of the deposited data

Results flagged for a closer look

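Among 30 sets of 4 values, 2 held a value far from the others, and chance alone flags about 1 in 20. The PACAP over vehicle ratio of S100a6 was set apart by WT mice at 30 min (0.24 against 0.05 to 0.08), where the gap took 0.845 of the range. The vehicle level of S100a10 was set apart by KO mice at 30 min (14.20 against 14.36 to 14.37), at 0.952 of the range. Both differences are small, and neither gene was called.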

How the results depend on the processing

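S100a8 and S100a9 remained called in both KO comparisons under every alternative run. The count of members called moved in WT mice at 30 min, from 1 to 4 at 1.5-fold and to between 1 and 2 with 1 array of each pair, and in WT mice at 60 min, from 1 to 2 at 1.5-fold. In the limma tests 0 members passed adjustment under any alternative, except the mean PACAP effect with single arrays, where without replicate 1 it was 2 (S100a8 and S100a9) and without replicate 2 it was 1 (S100a8). These single-array fits, in which PACAP has 1 dye, called 2118 and 2318 of 30351 probes against 0 with both arrays, and the cause was not tested. Leaving out a comparison or adding time or slide as a term called between 0 and 170 probes and 0 members. The fit of single arrays with a replicate block for the dye orientation, with the RNA pair as a random block, gave 0 members in each of the 3 ratio tests. The replicate numbers mark dye orientation and pair no animals. Of the members' ratios under alternatives, 233 moved by less than the spread between arrays and 7 by more, all 7 with normexp and loess. The vehicle signal of S100a7l2 was dim in WT mice at 30 min, and its part in the lower fold with normexp and loess was not tested.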
